A study of Mus musculus with 14 samples.

Results

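The 7 genes described here make long noncoding RNAs of mouse macrophages, and they were followed through 14 libraries. *AU020206* is the main gene, with *Neat1*, *Malat1*, *Mir155hg*, *Gas5*, *Snhg12* and *Snhg15* beside it for comparison. They were picked by symbol from the 47937 genes of the count table, and 7 of the 7 passed the filter on low counts that left 13061 genes for testing. The choice was made with earlier results of these libraries known, so differences of the 7 genes from untreated macrophages are given below as a description, with no test. Tests on them are restricted to contrasts that compare the supernatants with each other or the batches with each other, although values within batches were also known at the choice.

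Bone marrow-derived macrophages of WT mice were studied in 3 groups: 5 libraries of macrophages treated with mast cell supernatant, 3 libraries treated with the supernatant of mast cell intracellular traps, and 6 libraries of untreated macrophages. Treatment lasted 3.5 hours. The study's title concerns the trapping of neutrophils by mast cells. The labels place every library in 1 of 3 batches. Batch 1 holds mast cell replicates 1 and 4, trap replicate 1 and untreated replicates 1 and 4. Batch 2 holds mast cell replicate 2, trap replicate 2 and untreated replicates 2 and 5. Batch 3 holds mast cell replicates 3 and 5, trap replicate 3 and untreated replicates 3 and 6. Whether replicates are separate animals or cultures is not stated. A p-value here therefore weighs a difference against the spread of these 14 libraries alone, which may be technical. Because whole cultures were sequenced, fewer cells of a type and less RNA per cell cannot be told apart.

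Long noncoding RNAs are transcripts without a known protein product, and several act through their place in the nucleus. *Neat1* is the RNA scaffold around which paraspeckles assemble, and *Malat1* is an abundant nuclear RNA of splicing speckles. *Mir155hg* is the precursor of miR-155, a microRNA that inflammatory stimuli raise in macrophages, while *Gas5*, *Snhg12* and *Snhg15* carry small nucleolar RNAs in their introns and their spliced transcripts are cleared largely by nonsense-mediated decay. For *AU020206* the annotation gives a long intergenic noncoding RNA and no function.

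The libraries held 11729073 to 16123421 counts with mast cell supernatant, 12414738 to 16491536 with trap supernatant and 13455686 to 22720419 untreated. Macrophage markers summed to 12887 to 24597, 12744 to 23294 and 13180 to 22940 CPM (counts relative to the library's TMM-normalised total) in the mast cell, trap and untreated groups. *Csf1r*, the receptor for the macrophage growth factor, was at 1889 CPM or more in every library. Of the 16 macrophage markers 1 rose and 2 fell with mast cell supernatant (18.8%), and 0 rose and 2 fell with trap supernatant (12.5%). The fractalkine receptor *Cx3cr1* fell by 1.43 and 1.07 on the log2 scale (adjusted p = 3.07e-05 and 0.00253, edgeR's quasi-likelihood test) and the phagocytic receptor *Mertk* by 0.90 and 0.83 (0.00422 and 0.0328), with mast cell and trap supernatant. In the 9 libraries of replicates 1 to 3, blocked on the replicate number, the *Cx3cr1* call for trap supernatant (0.159) and both *Mertk* calls (0.103 and 0.232) were lost. *Mertk* with trap supernatant was also lost in 8 of 14 fits that left out a library, up to 0.146 without trap replicate 3. *Cd14*, a co-receptor for bacterial lipopolysaccharide, rose by 0.39 with mast cell supernatant (adjusted p = 0.0412, edgeR; lost in 11 of 14 such fits, up to 0.0955 without untreated replicate 1, and 0.0969 in the blocked libraries). Transcripts of mast cells were higher with both supernatants. Of the 19 tested mast cell markers 12 rose with mast cell and 10 with trap supernatant (63.2% and 52.6%, beside 2.17% and 0.919% of all genes). DESeq2 called 16 and 16 of them, and limma-voom 13 and 12. The call of *Mcpt4* with mast cell supernatant was lost in 12 of 14 fits that left out a library. In the 9 blocked libraries both calls of *Cpa3* were lost (adjusted p = 0.172 and 0.25, edgeR). Libraries of the same batch resembled each other, and batch was therefore a term in every main fit. Chi-square per degree of freedom, lower for more alike libraries, was 1.77 to 14.04 for pairs of the same group and batch. The lowest was that of untreated replicates 1 and 4. For pairs of the same group from different batches it was 29.12 or more. The batch term still counts such alike libraries as separate, and whether they are independent was not tested. At an adjusted p under 0.05 in edgeR's quasi-likelihood test, 625 of 13061 genes (4.79%) differed between mast cell supernatant and untreated, 2.17% higher and 2.62% lower. Between trap supernatant and untreated 224 (1.72%) differed, 0.919% higher and 0.796% lower. With only the 9 libraries of replicates 1 to 3, blocked on the replicate number, these counts were 84 and 36. That fit held 1 library per group and batch. The parts of fewer libraries and of alike libraries in the lower counts were not tested. Replicate number and batch coincide in those libraries, so that fit differed from the main one only in the libraries used.

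The gene body of *AU020206* (ENSMUSG00000097415) lies on the minus strand of mouse chromosome 7 at chr7:75769038-75782099 (GRCm38), and its exons cover 3189 bases. The start of its RefSeq transcript (GRCm38.p6) is shown with the 250 bases before and 50 bases after it, chr7:75782071-75782370 on the minus strand, because it is the region from which the main gene is transcribed. The capitals mark the single match to any of the motifs searched on both strands, the PU.1 element GAGGAAG read on the opposite strand, at positions -118 to -112 from the start.
AU020206 promoter: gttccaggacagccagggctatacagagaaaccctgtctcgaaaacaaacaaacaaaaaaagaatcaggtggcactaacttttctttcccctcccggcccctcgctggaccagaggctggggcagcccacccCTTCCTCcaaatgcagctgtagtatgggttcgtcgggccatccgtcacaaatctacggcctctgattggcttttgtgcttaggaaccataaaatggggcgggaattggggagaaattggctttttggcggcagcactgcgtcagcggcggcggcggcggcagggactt
PU.1 is the lineage factor of macrophages, and GAGGAAG is also held by 13.6% of the 32851 promoter windows of the same length, so the match describes letters and not a bound site. No match to the kappaB motif, the AP-1 motif TGANTCA, the CRE motif TGACGTCA, TATAAA or the interferon-stimulated response element was in this window. Promoter windows were found for 6 of the 7 genes; *Neat1* had no entry.

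*AU020206* was lower in every library treated with a supernatant than in every untreated library. Its level was 72.8, 70.3, 84.3, 68.8 and 84.6 CPM in mast cell replicates 1 to 5 and 82.7, 98.5 and 99.1 CPM in trap replicates 1 to 3. In the 6 untreated libraries the lowest level was 141 CPM, the median 172 CPM and the highest 186 CPM. The highest supernatant library, trap replicate 3, thus lay below the lowest untreated library, replicate 3, and neither supernatant group overlapped the untreated group. Such a gap on the lower side was present in 1.09% of all genes with mast cell and in 1.69% with trap supernatant, and 0.613% had all 8 supernatant libraries below all 6 untreated ones.

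The mean level of *AU020206* was 76.1 ± 7.72 CPM with mast cell supernatant (SD, n = 5), 93.5 ± 9.32 CPM with trap supernatant (n = 3) and 169 ± 15.5 CPM untreated (n = 6). On the log2 scale the fitted difference from untreated was -1.15 ± 0.08 (SE) with mast cell supernatant and -0.86 ± 0.09 with trap supernatant, which is 0.450 and 0.551 of the untreated level. Between 728 and 3685 reads stood behind each value, so counting error was 1.65% to 3.71% of a value and smaller than the spread between libraries.

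**Figure D1:**
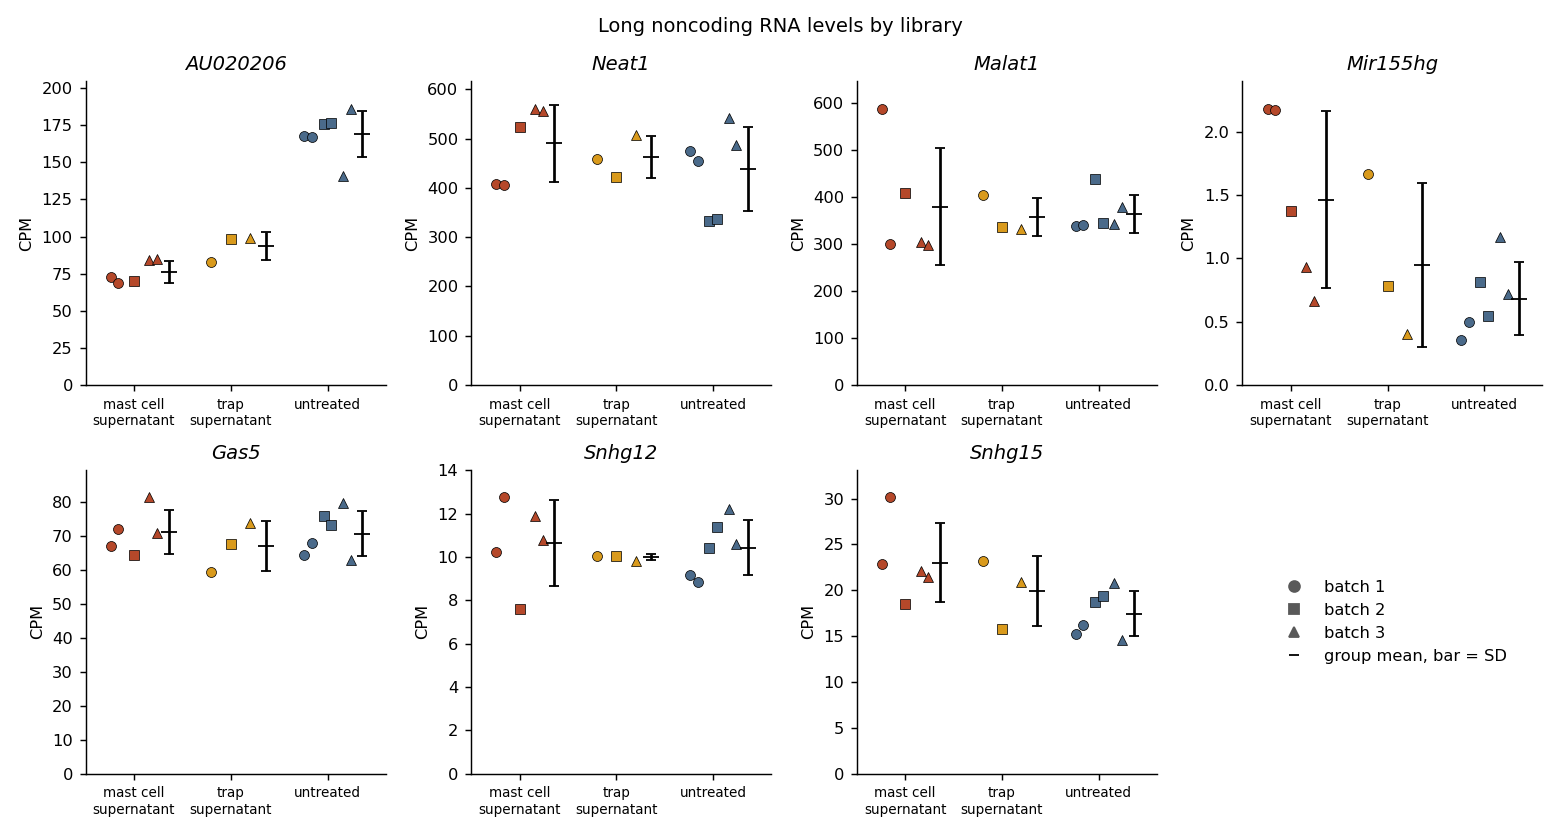
Level of each long noncoding RNA gene in CPM (vertical axes, from 0) in the 14 libraries, grouped by treatment, with the batch given by the marker shape and the group mean and SD as a bar. The 8 supernatant libraries of AU020206 lie between 68.8 and 99.1 CPM and the 6 untreated ones between 141 and 186 CPM, while the groups of the other 6 genes overlap.

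The lower level of *AU020206* was present in each batch, with no overlap in any; 2.73% of all genes showed that pattern. Supernatant libraries averaged 74.7 CPM in batch 1, 84.4 CPM in batch 2 and 89.4 CPM in batch 3, against 167, 176 and 163 CPM in the untreated libraries of batches 1, 2 and 3. The differences in mean log2 CPM were -1.24, -1.33 and -0.94 for mast cell supernatant in batches 1, 2 and 3, and -1.02, -0.84 and -0.71 for trap supernatant. A difference between batches in the response to either supernatant was not detected by edgeR's quasi-likelihood test of the interaction (adjusted p = 0.383; 2 of the 7 genes passed, described below, beside 5.9% of all genes). Without untreated replicate 6, the highest of its batch, edgeR's adjusted p for *AU020206* was 0.0215.

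The 2 supernatants were then compared with each other. *AU020206* was 0.29 ± 0.09 higher on the log2 scale with trap than with mast cell supernatant, and the sign was positive in each batch (0.23, 0.49 and 0.23). The difference did not pass the threshold over all genes (adjusted p = 0.915, edgeR's quasi-likelihood test, unadjusted p = 0.00493), and the groups overlapped, since trap replicate 1 at 82.7 CPM was below mast cell replicates 3 and 5. None of the 7 genes passed in this contrast, and the adjusted p of the other 6 was 1.0 in each. Over all genes edgeR called 0 (0%), with 569 at an unadjusted p under 0.05; limma-voom called 0 and DESeq2 called 11.

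**Figure D2:**
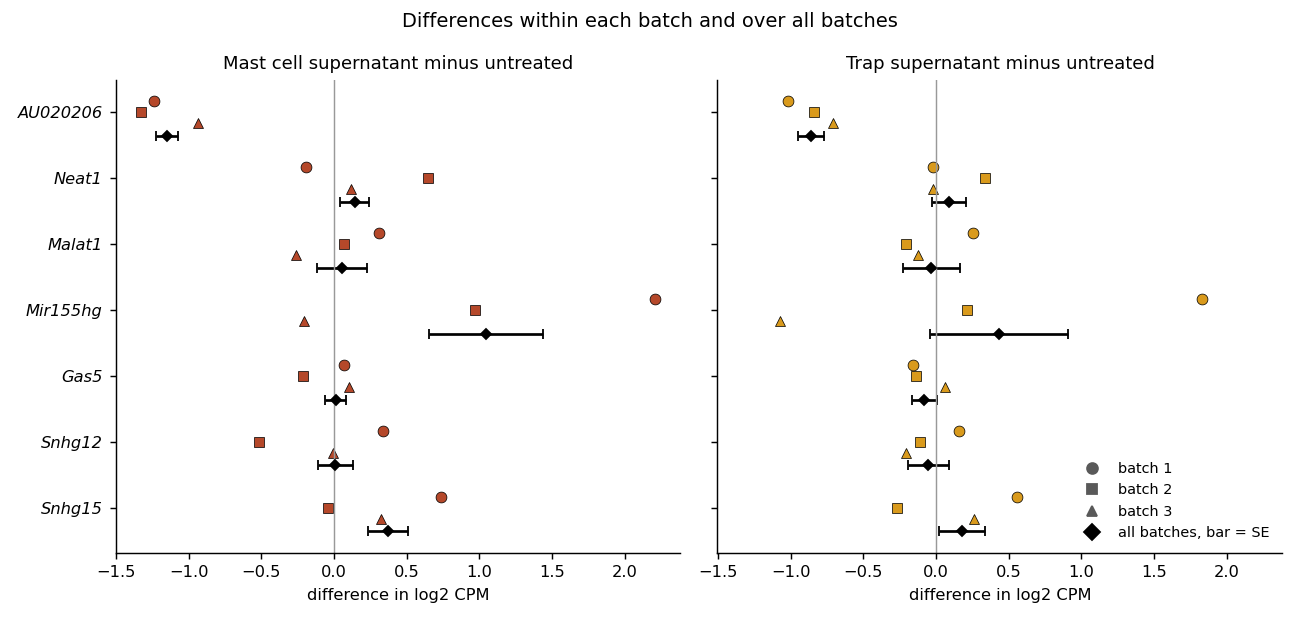
Difference in log2 CPM between mast cell supernatant (left) or trap supernatant (right) and untreated macrophages for the 7 genes, within each batch (coloured markers) and as fitted over all batches (black diamonds, bars are SE). AU020206 is below 0 in all 3 batches on both sides, from -1.33 to -0.71, whereas Neat1, Malat1, Mir155hg, Gas5, Snhg12 and Snhg15 each have batches on both sides of 0 with at least 1 supernatant.

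*AU020206* was among the most abundant long noncoding RNAs of untreated macrophages in these libraries, which were made from poly(A) RNA. It ranked 4 by CPM among the 689 long noncoding RNA genes tested, behind *Gm42418*, whose locus overlaps ribosomal RNA sequence, *Neat1* and *Malat1*, and it made up 3.74% of their summed CPM. Per kilobase of exon it ranked 3, at 53.0 ± 4.87 CPM per kb untreated (SD, n = 6), which is within the spread of *Malat1* at 52.1 ± 5.70 CPM per kb. These levels cover polyadenylated RNA only, so the whole level of either RNA in the cell was not compared. *Neat1* at 21.1 ± 4.09 and *Gas5* at 18.8 ± 1.77 CPM per kb followed and overlapped each other. Below them came *Snhg15* at 12.9 ± 1.83, *Snhg12* at 4.34 ± 0.53 and *Mir155hg* at 0.477 ± 0.20 CPM per kb, each with no untreated library in the range of the next. For *Neat1* the divisor was its whole exon length of 20771 bases, although polyadenylated RNA holds mainly its shorter isoform. The place of *Neat1* per kilobase depends on that divisor. By CPM it was at 438 untreated, against 169 for *AU020206* and 70.8 for *Gas5*. With mast cell supernatant *AU020206* stood at 23.9 ± 2.42 and with trap supernatant at 29.3 ± 2.92 CPM per kb, against the untreated 53.0.

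Among the other long noncoding RNA genes, a smaller share passed the test than among protein-coding genes. With mast cell supernatant 3 rose and 8 fell, 11 of 682 (1.61%), beside 609 of 11730 protein-coding genes (5.19%). With trap supernatant 3 rose and 3 fell, 6 of 682 (0.88%), beside 213 (1.82%). These shares were not tested against each other and were not matched for level, and fewer reads make a call harder. By untreated CPM *Snhg12*, at 10.4, ranked 50 among the 689 long noncoding RNA genes tested, so most of them were below that level. The median log2 difference of the 682 genes was -0.09 and -0.06, beside -0.01 and -0.01 over all genes.

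Those called with the lowest log2 differences were transcripts of low level. *6330403L08Rik* fell to 15.1 ± 3.93 CPM with mast cell supernatant (SD, n = 5) and to 16.7 ± 4.75 CPM with trap supernatant (n = 3), against 24.8 ± 4.59 CPM untreated (n = 6). It fell by 0.74 ± 0.09 and 0.59 ± 0.10 on the log2 scale (adjusted p = 0.000142 and 0.00701, edgeR). Without trap replicate 1 the adjusted p for trap supernatant in edgeR was 0.0513. *AI504432* fell by 0.75 ± 0.12 with mast cell supernatant (adjusted p = 0.00218, edgeR), and its fall of 0.60 ± 0.14 with trap supernatant (adjusted p = 0.0452) was lost in 9 of 14 fits that left out a library, up to 0.173 without trap replicate 1. *Gm16315* (-0.92 ± 0.22, adjusted p = 0.0232, edgeR) and *E330034L11Rik* (-0.62 ± 0.17, adjusted p = 0.0451) fell with mast cell supernatant. Their calls were lost in 5 and 11 of those 14 fits, with edgeR adjusted p up to 0.0676 without mast cell replicate 5 and 0.125 without mast cell replicate 2.

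With trap supernatant *Gm37795* fell by 0.53 ± 0.11 on the log2 scale (adjusted p = 0.0221, edgeR), a call lost in 5 of 14 fits with a library left out, up to 0.148 without trap replicate 1. On the higher side stood *Gm28417* with mast cell supernatant (0.49 ± 0.12, adjusted p = 0.0276, edgeR; lost in 8 of 14 fits, up to 0.0745 without mast cell replicate 2) and *5830432E09Rik* with trap supernatant (0.40 ± 0.09, adjusted p = 0.0458; lost in 11 of 14 fits, up to 0.255 without trap replicate 3). In the 9 libraries blocked on replicate number the call of *6330403L08Rik* remained with both supernatants. Those of *AI504432* (adjusted p = 0.0621 and 0.254, edgeR), *Gm16315* (0.494), *E330034L11Rik* (0.27), *Gm37795* (0.224), *Gm28417* (0.226) and *5830432E09Rik* (0.453) were lost.

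**Figure D3:**
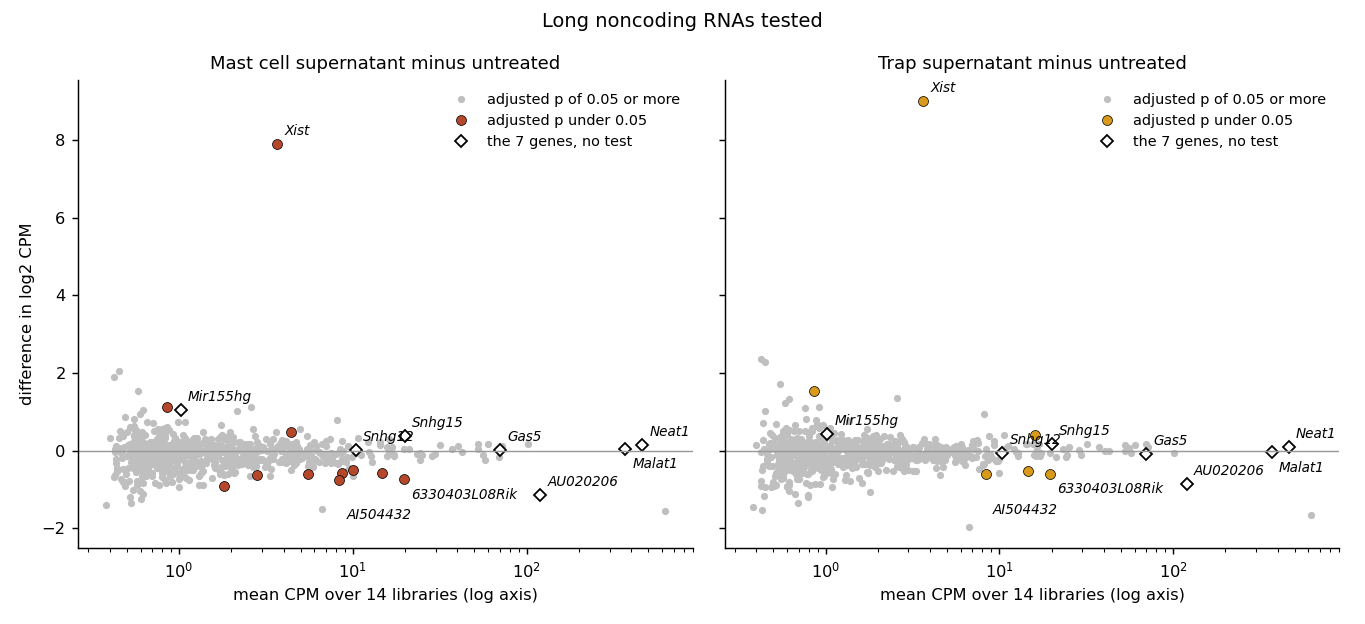
Difference in log2 CPM between mast cell supernatant (left) or trap supernatant (right) and untreated against mean CPM over 14 libraries (log axis) for the 689 long noncoding RNA genes tested; filled colour marks an adjusted p under 0.05, and open diamonds mark the 7 genes, which carry no test here. AU020206 lies at -1.15 and -0.86, and the point of Xist is a fitted value that depends on the prior count, since its untreated libraries held 1 read in all.

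The transcript *Xist*, which coats the inactive X chromosome of female cells, stood out among the long noncoding RNAs called, and its reads were spread over the libraries as the mast cell transcripts were. It had 7, 238, 36, 11 and 29 reads in mast cell replicates 1 to 5 and 7, 120 and 289 reads in trap replicates 1 to 3. The 6 untreated libraries held 1 read together, in replicate 1. Scaled to the library sizes, the ratio to untreated was 517 for mast cell supernatant (95% interval 92.1 to 20472, counting error only) and 997 for trap supernatant (178 to 39456). It passed the test with both supernatants (adjusted p = 0.00603 and 0.00517, edgeR), but without untreated replicate 1 the values were 0.126 and 0.144, and in the 9 blocked libraries 0.297 and 0.374.

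The mast cell markers followed nearly the same order of libraries as *Xist*, and the part of mast cell RNA in the *Xist* reads was not tested. *Cpa3*, a carboxypeptidase of mast cell granules, stood at 11.5, 214, 44.0, 14.5 and 39.6 CPM in mast cell replicates 1 to 5 and at 12.6, 105 and 340 CPM in trap replicates 1 to 3. The 6 untreated libraries held 2 reads of it together. Of the 20 mast cell markers 5 had 0 reads in all untreated libraries, *Mcpt4*, *Tpsb2*, *Tpsab1*, *Mrgprb2* and *Tph1*. Others had some, such as *Kit* at 0.325 and *Hdc* at 1.34 CPM untreated. The 20 markers together, some of which macrophages also express, summed to 352 to 1641 CPM with mast cell supernatant, 353 to 2417 CPM with trap supernatant and 78.7 to 192 CPM untreated. Of 14 neutrophil markers tested, edgeR called 0 in either comparison (1 and 0 at an unadjusted p under 0.05; DESeq2 1 and 0, limma-voom 0 and 0). *S100a8*, a neutrophil calcium-binding protein, averaged 20.8 ± 5.68, 20.2 ± 10.6 and 22.0 ± 10.6 CPM in the 3 groups.

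*AU020206* spanned a far smaller range over the same libraries. In batch 1, where *Cpa3* was 11.5 to 14.5 CPM, the supernatant libraries had 68.8 to 82.7 CPM of *AU020206*, and trap replicate 3, at 340 CPM of *Cpa3*, had 99.1 CPM. Without the 2 supernatant libraries of most *Cpa3*, mast cell replicate 2 and trap replicate 3, the log2 differences of *AU020206* were -1.09 and -0.89, close to -1.15 and -0.86 with all libraries. That alternative was chosen after the data were seen, and every supernatant library left in it held 11.5 CPM of *Cpa3* or more. The part of mast cell RNA in the *AU020206* difference was not tested.

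**Figure D4:**
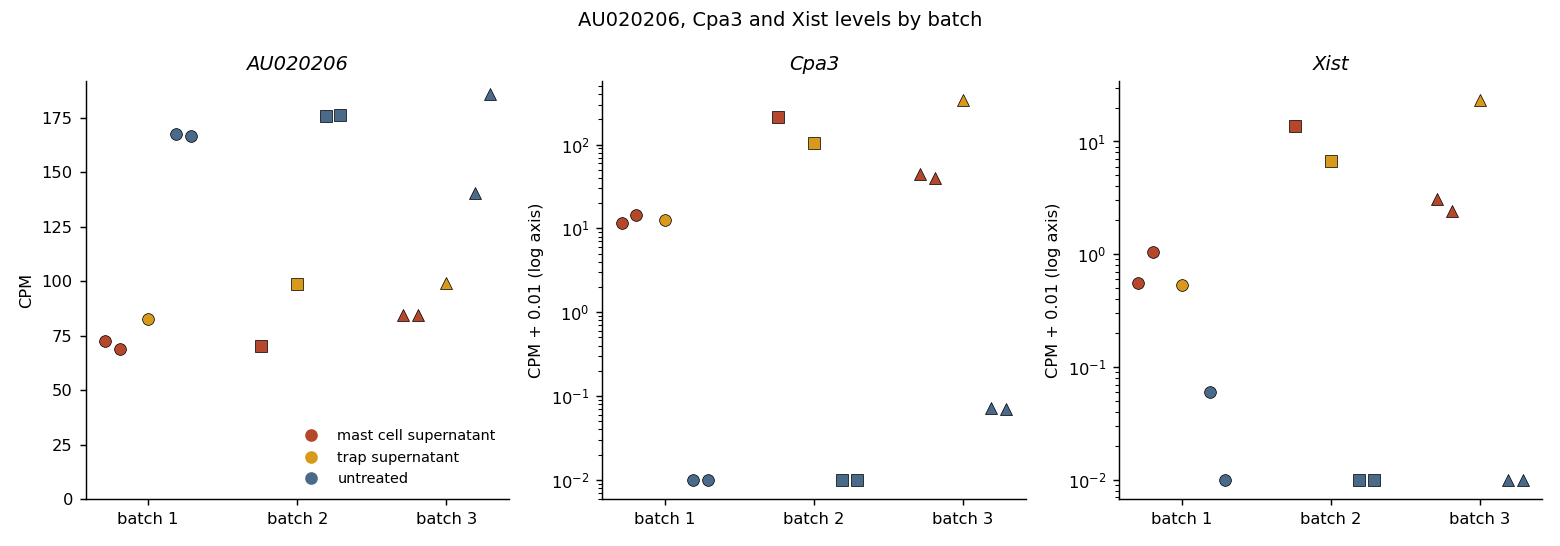
Levels of AU020206 (CPM, from 0), Cpa3 and Xist (CPM + 0.01, log axes) in each library by batch, coloured by treatment. Cpa3 ranges from 11.5 to 340 CPM over the supernatant libraries and AU020206 from 68.8 to 99.1 CPM over the same libraries.

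None of the 6 tested genes nearest to *AU020206*, 3 on each side, was lower past the threshold. Over all genes only 2.62% were with mast cell and 0.796% with trap supernatant, so so few genes say little about the locus. *Akap13*, a scaffold protein that anchors protein kinase A, ends 14429 bases away on the opposite strand and had 220 ± 45.1 CPM with mast cell supernatant (SD, n = 5), 220 ± 48.9 with trap supernatant (n = 3) and 229 ± 23.5 untreated (n = 6). It had log2 differences of -0.10 ± 0.12 and -0.08 ± 0.14 (adjusted p = 0.708 and 0.890, edgeR). By batch these were 0.17, 0.18 and -0.54 with mast cell and 0.23, -0.22 and -0.24 with trap supernatant. The difference between batches missed the threshold (adjusted p of the interaction = 0.0777, edgeR). It passed in 3 of 14 fits with a library left out, by DESeq2 (0.0111) and in edgeR with no filter on low counts (1.14e-05). *Klhl25*, an adaptor of a ubiquitin ligase 66211 bases away on the other side, had 29.3 ± 7.09, 32.4 ± 10.2 and 33.5 ± 1.79 CPM in the mast cell, trap and untreated groups. Its log2 differences of -0.24 ± 0.11 and -0.08 ± 0.12 did not pass (adjusted p = 0.215 and 0.846, unadjusted p = 0.0345 and 0.495, edgeR). By batch they were 0.10, -0.34 and -0.51 with mast cell and 0.36, -0.19 and -0.44 with trap supernatant. Its response differed between batches (adjusted p of the interaction = 0.0104, edgeR; lost without untreated replicate 1 at 0.0576 or replicate 4 at 0.107). *Slco3a1*, *Mrpl46* and *Mrps11*, each at least 1214258 bases away, did not pass either. *Fam174b*, 1992119 bases away, rose to 2.32 ± 2.85 and 5.60 ± 5.64 CPM with mast cell and trap supernatant, against 0.116 ± 0.08 CPM untreated. The log2 differences were 4.23 ± 0.84 and 5.27 ± 0.83 (adjusted p = 0.0146 and 0.00889, edgeR). In the 9 blocked libraries edgeR's adjusted p was 0.308 and 0.353, and for mast cell supernatant without untreated replicate 5 it was 0.0505. By batch its mast cell differences were 1.66, 5.49 and 3.52, and *Cpa3* was lowest in batch 1 as well. The part of mast cell transcripts in it was not tested.

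The 5 genes whose pattern was most like that of *AU020206* were found by Pearson's r over the 14 libraries of log2 CPM, after each batch's mean was subtracted, among 9769 genes of at least 5 CPM. The first were *H6pd* (r = 0.984), an enzyme of NADPH supply in the endoplasmic reticulum, and *Irf2bp2* (0.983), a transcriptional corepressor. They were followed by *Fmnl3* (0.981), a formin that shapes actin, *Cebpa* (0.972), a transcription factor of the myeloid lineage, and *Slc25a37* (0.971), the mitochondrial iron carrier. The r values describe libraries that share batches and treatments, and 71 genes had r over 0.9. *Fmnl3* had 87.0 ± 5.34 CPM with mast cell supernatant, 94.0 ± 7.25 with trap supernatant and 144 ± 10.8 untreated, log2 differences of -0.71 ± 0.05 and -0.62 ± 0.05. For *Cebpa* the values were 130 ± 33.8, 129 ± 20.9 and 207 ± 40.9 CPM, -0.76 ± 0.09 and -0.68 ± 0.11 on the log2 scale. By Spearman's rho 3 of these 5 stayed among the closest 5, and without subtracting batch means 1 did, *Fmnl3*.

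*Neat1*, which in polyadenylated RNA is seen mainly as its shorter isoform, had supernatant libraries apart from untreated ones in batch 2 only. It had 408, 523, 561, 406 and 555 CPM in mast cell replicates 1 to 5 and 458, 422 and 507 CPM in trap replicates 1 to 3. Untreated libraries ranged from 333 CPM over a median of 464 CPM to 542 CPM, with the 2 lowest, at 333 and 337 CPM, in batch 2. The groups overlapped, and the differences from untreated were 0.14 ± 0.10 with mast cell supernatant and 0.09 ± 0.12 with trap supernatant (log2 ± SE).

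Within batches the supernatant libraries of *Neat1* averaged 424 CPM in batch 1, 473 CPM in batch 2 and 541 CPM in batch 3, against 464, 335 and 514 CPM in the untreated libraries of the same batches. The log2 differences were -0.13, 0.49 and 0.07, and they differed between batches (adjusted p = 0.0165, edgeR's quasi-likelihood test of the interaction, n = 14 libraries), with both supernatant libraries above both untreated ones in batch 2. The call was lost without mast cell replicate 2 (0.0804) or untreated replicate 1 (0.0934), 2 (0.0731), 4 (0.0623) or 5 (0.0662). In batch 2 mast cell markers were at 1641 and 920 CPM in the supernatant libraries, against 352 to 407 CPM in batch 1. In batch 3, where the *Neat1* difference was 0.07, they were at 486 and 415 CPM in the mast cell libraries and at 2417 CPM in trap replicate 3, the highest of all libraries. Their part in the difference was not tested.

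*Malat1*, 22036 bases from *Neat1* on the same strand, differed by less than the spread between libraries. Its level was 588, 408, 304, 301 and 299 CPM in mast cell replicates 1 to 5 and 404, 337 and 331 CPM in trap replicates 1 to 3, and untreated libraries ranged from 338 CPM over a median of 344 CPM to 439 CPM. Mast cell replicate 1 stood far above its group, and its batch partner, replicate 4, was among the lowest. The log2 differences from untreated were 0.05 ± 0.17 and -0.03 ± 0.20, and without mast cell replicate 1 the mast cell difference was -0.14. No difference between batches was detected (adjusted p = 0.661, edgeR), although the test without a filter on low counts gave 6.75e-05.

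Of 25 genes for paraspeckle proteins, 1 rose and 1 fell with mast cell supernatant (8% beside 4.79% of all genes) and edgeR called 0 with trap supernatant (2 at an unadjusted p under 0.05, 0 by DESeq2 and 0 by limma-voom). *Pspc1*, a core paraspeckle protein, rose to 17.3 ± 3.22 CPM with mast cell supernatant (n = 5), against 13.2 ± 1.37 CPM untreated (n = 6), by 0.39 ± 0.09 on the log2 scale (adjusted p = 0.0195, edgeR). The call was lost without mast cell replicate 2 (0.0636), mast cell replicate 4 (0.0504) or untreated replicate 4 (0.0517), and in the 9 blocked libraries (0.429). *Hnrnpul1*, an RNA-binding protein, fell by 0.16 ± 0.04 (adjusted p = 0.0403, edgeR), a call lost in 13 of 14 fits with a library left out, up to 0.0998 without mast cell replicate 5. The median of the list was 0.03 in both comparisons, beside -0.01 over all genes.

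*Mir155hg* was the scarcest of the 7 genes, at 5 to 28 reads a library, and the batches differed in it. The mature arms of its microRNA were not measured here; RefSeq places their hairpin at chr16:84714140-84714204 (GRCm38.p6, plus strand), inside the gene at chr16:84703167-84715245. Both arms are shown, RNA letters with the seed, bases 2 to 8, in capitals, because the seed is the stretch by which a microRNA recognises its targets.
mmu-miR-155-5p: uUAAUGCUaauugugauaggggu
mmu-miR-155-3p: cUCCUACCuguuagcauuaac

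*Mir155hg* had 2.18, 1.37, 0.935, 2.17 and 0.663 CPM in mast cell replicates 1 to 5 and 1.67, 0.783 and 0.403 CPM in trap replicates 1 to 3. The 6 untreated libraries ranged from 0.354 CPM over a median of 0.634 CPM to 1.17 CPM. The 3 highest values were the 3 supernatant libraries of batch 1, and elsewhere the groups overlapped. Over all batches the log2 differences were 1.04 ± 0.39 with mast cell supernatant and 0.43 ± 0.47 with trap supernatant, and the trap difference became -0.10 without trap replicate 1.

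By batch *Mir155hg* averaged 2.01, 1.08 and 0.667 CPM in the supernatant libraries of batches 1, 2 and 3, against 0.426, 0.680 and 0.944 CPM in the untreated ones. The log2 differences were 2.08, 0.59 and -0.49, and they differed between batches (adjusted p = 0.0196, edgeR's quasi-likelihood test of the interaction, n = 14 libraries). The call was lost without mast cell replicate 5 (0.0561), trap replicate 1 (0.0544) or untreated replicate 1 (0.126), 3 (0.0568) or 4 (0.077). At this depth the exact 95% Poisson interval of a library is wide, from 0.131 to 0.941 CPM for the 5 reads of trap replicate 3 and from 1.45 to 3.16 CPM for the 28 reads of mast cell replicate 1; such intervals cover counting error only.

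Of 18 tested genes known as targets or partners of miR-155, 2 fell and 0 rose with mast cell supernatant, and edgeR called 0 with trap supernatant (3 at an unadjusted p under 0.05, 0 by DESeq2 and 0 by limma-voom). The 2 are 11.1% of the list, beside 4.79% of all genes. *Il13ra1*, a receptor chain for interleukin-13, fell by 0.41 ± 0.09 on the log2 scale, to 10.8 ± 3.31 CPM with mast cell supernatant against 13.0 ± 4.71 CPM untreated (adjusted p = 0.0181, edgeR). This call was lost without mast cell replicate 2 (0.0504) or 5 (0.0514) or untreated replicate 4 (0.0521). *Myo1d*, a myosin, fell by 0.61 ± 0.14, to 21.1 ± 5.81 CPM against 33.0 ± 5.08 CPM untreated (adjusted p = 0.0200, edgeR; lost in 4 of 14 fits, up to 0.0621 without mast cell replicate 3). In the 9 blocked libraries the adjusted p was 0.256 and 0.273. The medians of the list, -0.04 and -0.01, lay near -0.01 and -0.01 over all genes. Of 5 other microRNA host genes tested, edgeR called 0 in either comparison (1 and 1 at an unadjusted p under 0.05, 0 by DESeq2 and limma-voom).

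The genes most like *Mir155hg* over the 14 batch-centred libraries were *Ctsc* (r = 0.920), a lysosomal protease, *Gorab* (0.90), a Golgi protein, *Rgs2* (0.895), a regulator of G-protein signalling, *Mid1ip1* (0.892), which promotes fatty acid synthesis, and *Neu1* (0.892), a lysosomal sialidase. *Rgs2* had mast cell differences of 1.04, 0.54 and -0.36 in batches 1, 2 and 3, beside 2.21, 0.97 and -0.21 for *Mir155hg*. By Spearman's rho 2 of the 5 stayed among the closest 5, and 1 did without subtracting batch means. With 5 to 28 reads a library, counting error of 18.9% to 44.7% enters every one of these correlations.

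The neighbour *Mrpl39*, a mitochondrial ribosomal protein gene 2331 bases from *Mir155hg* on the opposite strand, had 32.7 ± 7.57, 32.0 ± 4.81 and 31.2 ± 2.25 CPM in the mast cell, trap and untreated groups and did not pass (adjusted p = 0.705 and 0.952, edgeR). Its mast cell differences by batch, 0.41, 0.01 and -0.25, had the same order as those of *Mir155hg*, with an adjusted p of 0.0544 for the interaction in edgeR. It passed in 5 of 14 fits with a library left out, down to 0.0201 without trap replicate 1.

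Of the 3 host genes of small nucleolar RNAs, *Gas5* and *Snhg12* differed from untreated by less than the spread between libraries. Their annotated starts, 20 bases on each side, are set side by side because transcripts of this family typically begin with a pyrimidine tract, a feature shared with mRNAs whose translation follows growth signals. Capitals mark a C followed by at least 4 pyrimidines within 10 bases of the start (RefSeq, GRCm38.p6).
Gas5 start, chr1:161035146-161035185, plus strand: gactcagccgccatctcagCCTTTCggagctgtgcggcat
Snhg12 start, chr4:132308658-132308697, plus strand: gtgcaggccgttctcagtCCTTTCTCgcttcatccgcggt
Snhg15 start, chr11:6528741-6528780, minus strand: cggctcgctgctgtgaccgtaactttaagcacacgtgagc
Such a tract was present in 30.7% of the 32851 windows, and also at the annotated starts of *AU020206* and *Mir155hg*. *Gas5* has another annotated start without it, and no tract was found at the annotated start of *Snhg15*. The full windows around the *Gas5* and *Snhg15* starts shown each held a CRE motif, TGACGTCA, at -46 to -39 and -88 to -81 from the start, beside 1.79% of all windows.

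*Gas5*, named for its accumulation in growth-arrested cells, had 67.1, 64.5, 81.5, 72.2 and 71.0 CPM in mast cell replicates 1 to 5, 59.5, 67.9 and 74.0 CPM in trap replicates 1 to 3 and 63.0 to 79.7 CPM, median 70.7, untreated. The groups overlapped, although in batch 2 both supernatant libraries were below both untreated ones, which were at 73.4 and 76.1 CPM. The log2 differences were 0.01 ± 0.07 and -0.08 ± 0.08. *Snhg12* averaged 10.6 ± 1.97, 9.99 ± 0.13 and 10.4 ± 1.28 CPM in the mast cell, trap and untreated groups, with log2 differences of 0.01 ± 0.12 and -0.05 ± 0.14. The gene *Zbtb37* overlaps the first part of *Gas5* on the opposite strand. The kit marks strand, but the strand setting of the counting is not given in the sources used here, so reads of that overlap may be shared. *Zbtb37* itself averaged 10.3, 10.1 and 10.3 CPM.

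Among these 3 genes, *Snhg15* had the largest differences from untreated. It had 22.9, 18.5, 22.1, 30.1 and 21.5 CPM in mast cell replicates 1 to 5 and 23.2, 15.8 and 20.9 CPM in trap replicates 1 to 3. Untreated libraries ranged from 14.5 CPM over a median of 17.5 CPM to 20.8 CPM, so the groups overlapped, and mast cell replicate 4 was the highest library. The log2 differences were 0.37 ± 0.14 and 0.18 ± 0.16. Supernatant libraries stood above the untreated ones of the same batch in batches 1 and 3 (0.68 and 0.30) and below them in batch 2 (-0.16), and the difference between batches missed the threshold (adjusted p = 0.0637, edgeR). It passed without mast cell replicate 1 (0.0492) or untreated replicate 3 (0.00908) or 6 (0.0149), and with no filter on low counts (0.00353). Its neighbour *Myo1g*, a myosin of blood cells 4626 bases away, rose with mast cell supernatant to 252 ± 27.4 CPM, against 212 ± 11.8 CPM untreated, by 0.21 ± 0.05 on the log2 scale (adjusted p = 0.0145, edgeR). The adjusted p was 0.0542 without mast cell replicate 1 and 0.315 in the 9 blocked libraries. With all libraries none of the other tested genes nearest to *Neat1*, *Malat1*, *Gas5*, *Snhg12* and *Snhg15* on either side passed in either comparison. Among them were *Frmd8os*, 145 bases from *Neat1*, and *Trnau1ap*, 739 bases from *Snhg12*. *Trnau1ap* differed by 0.21 ± 0.09 with mast cell supernatant (adjusted p = 0.214, edgeR) and passed without mast cell replicate 2 (0.0467).

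Of 10 further noncoding host genes of this kind, edgeR called 0 in either comparison (1 and 1 at an unadjusted p under 0.05, 0 by DESeq2 and limma-voom). Their median log2 differences were 0.00 and 0.02. Of 17 factors of nonsense-mediated decay, 1 rose with mast cell supernatant (5.88%, near the 4.79% of all genes). This was *Nbas*, which rose by 0.36 ± 0.09 to 15.0 ± 1.11 CPM, against 11.6 ± 1.63 CPM untreated (adjusted p = 0.0213, edgeR). That call was lost in 5 of 14 fits with a library left out, up to 0.0912 without mast cell replicate 2, and in the 9 blocked libraries (0.313). With trap supernatant 0 of the 17 passed (0 at an unadjusted p under 0.05 in edgeR, 0 by DESeq2 and limma-voom). Of 24 mRNAs of the translation machinery that begin with a pyrimidine tract, such as *Eef1a1* and *Rps6*, edgeR called 0 in either comparison (7 and 0 at an unadjusted p under 0.05, 0 by DESeq2 and limma-voom). The log2 differences of 24 with mast cell and 14 with trap supernatant were positive, with medians of 0.10 and 0.01, beside -0.01 and -0.01 over all genes.

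Of 20 other named long noncoding RNAs tested, such as *Kcnq1ot1* and *Gm26917*, 1 rose with each supernatant, *Xist*, and 0 fell (5% beside 4.79% and 1.72% of all genes). The most abundant of them, *Gm42418*, had log2 differences of -1.56 ± 0.47 and -1.65 ± 0.56, which did not pass (adjusted p = 0.104 and 0.239, edgeR). The summed CPM of the 689 long noncoding RNA genes tested was 0.389 ± 0.03% of the TMM-normalised total with mast cell supernatant (SD). It was 0.380 ± 0.03% with trap supernatant and 0.452 ± 0.07% untreated, and the ranges overlapped.

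Among the 7 genes themselves, batch-centred log2 CPM of *AU020206* had Pearson's r of -0.67 with *Snhg15*, -0.66 with *Mir155hg* and -0.43 with *Neat1* over the 14 libraries, and between -0.06 and 0.01 with *Malat1*, *Gas5* and *Snhg12*. The 3 snoRNA hosts had r of 0.48 to 0.58 with each other. These values come from the same libraries, which share batch and treatment, and are given as a description.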

How the data were processed

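Per the labels' protocols, poly(A) RNA from a Qiagen kit (RNeasy Plus Micro) went into the Illumina stranded mRNA prep. The authors deposited raw counts per gene, made with featureCounts 2.0.0 on GRCm38 per the submitters' processing notes. For the aligner, the annotation and the strand setting, the choice is not given in the sources used here. Counts were tested with edgeR 4.0.16 in R 4.3.3 (TMM, filterByExpr, batch and group as terms, 14 libraries, Benjamini-Hochberg adjustment over 13061 genes). The interaction test added batch by supernatant terms. DESeq2 1.42.0 and limma-voom (limma 3.58.1) were alternatives. The edgeR fits were also run on simulated counts, drawn independently for each library. For the group contrasts the simulated differences were alike in every batch. Technical repeats within a batch, and group differences that vary between batches, were therefore not covered for those contrasts. Gene types and positions came from an annotation of GRCm38, and 47310 of 47937 IDs matched. Sequences came from RefSeq tables, read with Python 3.11.15.

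The table's columns abbreviate the groups and were matched to the sample titles by abbreviation and replicate number. The genes and lists were chosen with earlier results of these data known. Named genes are the 7 genes, their tested neighbours, the 5 genes of closest pattern, up to 3 called genes per list and direction, and up to 5 called long noncoding RNAs of at least 1 CPM per direction. Replicates 1 to 3 share a batch label across groups, and the 9 same-numbered pairs correlated at 0.293 to 0.718. Pairs of different number correlated at -0.556 to 0.168. No libraries were identical. Library totals ranged from 11729073 to 22720419 counts.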

Additional observations from a re-analysis of the deposited data

Results flagged for a closer look

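*Neat1* was singled out because the difference between supernatant-treated and untreated macrophages was not the same in the 3 batches (adjusted p = 0.0165, edgeR's test of the interaction). The log2 differences were -0.13, 0.49 and 0.07 in batches 1, 2 and 3. *Mir155hg* was singled out for the same reason (adjusted p = 0.0196, edgeR), with log2 differences of 2.08, 0.59 and -0.49. Both calls were lost in 5 of 14 fits that left out a library.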

How the results depend on the processing

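*AU020206* kept its sign in all 22 alternatives tried, with log2 differences of -1.22 to -1.09 for mast cell and -0.92 to -0.79 for trap supernatant; with the replicate block they were -1.10 and -0.79. Counts over all genes moved more. For mast cell supernatant against untreated, 625 genes became 62 with no batch term and 84 in the 9 libraries of the replicate block. The block equals the batch term there, so only the libraries used differed. The count became 384 without mast cell replicate 2 and trap replicate 3, the supernatant libraries of most *Cpa3*, an alternative chosen after seeing the data. For trap supernatant, 224 became 409 with DESeq2, and 15, 36 and 80 in those same settings. For trap against mast cell supernatant, DESeq2 called 11 and edgeR 0. For the difference between batches, 771 became 1571 with no filter on low counts and 1202 without the *Cpa3*-rich libraries. Leaving out a library gave 449 to 751, 97 (without trap replicate 3) to 280 (without untreated replicate 3), 0 to 3, and 238 (without untreated replicate 1) to 1283 (without untreated replicate 3) genes for the 4 tests in that order. The causes were not tested. Depth limits *Mir155hg* most, at 5 to 28 reads a library.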
